A study of Agaricus bisporus with 16 samples.

Results

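Strain 065 BP-8 of the button mushroom, Agaricus bisporus, was set against strain 245 AMA-7 on day 27 after spawning, when the cultures were at pinning. The comparison used 4 of the 16 libraries of the series, 2 of 065 BP-8 and 2 of 245 AMA-7, chosen by strain and day alone, and covered all 10438 genes listed for these strains. Each library is RNA from a sample of compost colonised by mycelium, taken from the middle of a cultivation crate under a casing layer. The compost was made from wheat straw, manure of horse and chicken, and gypsum. The stated aim of the series was to find, by comparing strains at 2 stages, better use of compost components that A15, the commercial strain, uses poorly. No group carried a treatment, and the labels give each strain by its name only, without mating type, ploidy or origin. The libraries of the same strains on day 39, at the first flush of mushrooms, were used as a second occasion, with 2 libraries per strain. Strain 219 30P, also with 2 libraries on each day, shared the estimate of spread and is given beside some results as a level. Whether duplicates are samples of separate crates is not stated in the labels; a p-value here measures only the spread between the samples at hand, and that spread may be technical.

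Pinning is the stage at which hyphae of the vegetative mycelium aggregate into primordia, the initials of the mushrooms. While it colonises compost, the mycelium secretes laccases and manganese peroxidase, oxidative enzymes that attack lignin and other phenolic material, and laccase activity in this species is known to be high in colonising mycelium and to drop as fruit bodies develop. Respiration in fungi runs through the complexes numbered I to IV, and through ATP synthase, in the mitochondrial inner membrane, and many fungi also hold an alternative oxidase that passes electrons to oxygen without pumping protons.

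Gene levels were taken to be in FPKM, a count of fragments divided by transcript length and by the fragments mapped in the library. Levels of different genes can thus be set side by side within a library. Between libraries they are shares, so a comparison also depends on the abundance of the other transcripts. Depth could not be read from counts, which were not at hand. An estimate from the steps between low values put the shallowest of the 4 libraries at 0.945 of the deepest. That estimate was searched only over small ratios between libraries, so a large gap in depth could not have been found. In each library, 8512 to 8571 genes reached 1 FPKM. The duplicates of 065 BP-8 on day 27 stood further apart than those of any other group used. Of the genes tested, 12.5% differed by more than 1.5-fold between these duplicates, against 5.04% between the 245 AMA-7 duplicates of day 27 and 3.14% to 5.38% in the other 4 groups. Replicate 1 of 065 BP-8 was also the further of its pair from 245 AMA-7, with a Spearman correlation across genes of 0.904 and 0.905 with the 245 AMA-7 libraries, against 0.936 with both for replicate 2. Correlations across genes describe the libraries, since genes are not independent replicates. For some genes in which these duplicates lay apart, though not for all, the difference is therefore given with and without replicate 1 below.

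About as many genes stood higher as lower in 065 BP-8, and most differences were smaller than 2-fold. The test took in 8798 genes whose mean reached 1 FPKM over the 12 libraries of 065 BP-8, 245 AMA-7 and 219 30P. Of these, 4286 (48.7%) passed between the strains on day 27, with limma on log2(FPKM + 1) and an adjusted p under 0.05 by the Benjamini-Hochberg method. Among the genes called, 2319 (26.4% of the genes tested) were higher in 065 BP-8 and 1967 (22.4%) were lower. At least 2-fold on this scale, 594 (6.75%) were higher and 618 (7.02%) were lower. The median difference over all genes tested was 0.04 (065 BP-8 minus 245 AMA-7, log2), and the 5th and 95th percentiles were -1.24 and 1.17. In 4284 of the 4286 genes called, the libraries of one strain lay wholly above those of the other, as they did in 6334 of all genes tested. The number called rests in part on the spread estimated from all 12 libraries: the 4 day 27 libraries alone gave 2643 calls, of which 1405 were higher and 1238 lower. All differences are of RNA in bulk compost samples, in which fewer cells of a kind and less RNA per cell cannot be told apart.

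**Figure D1:**
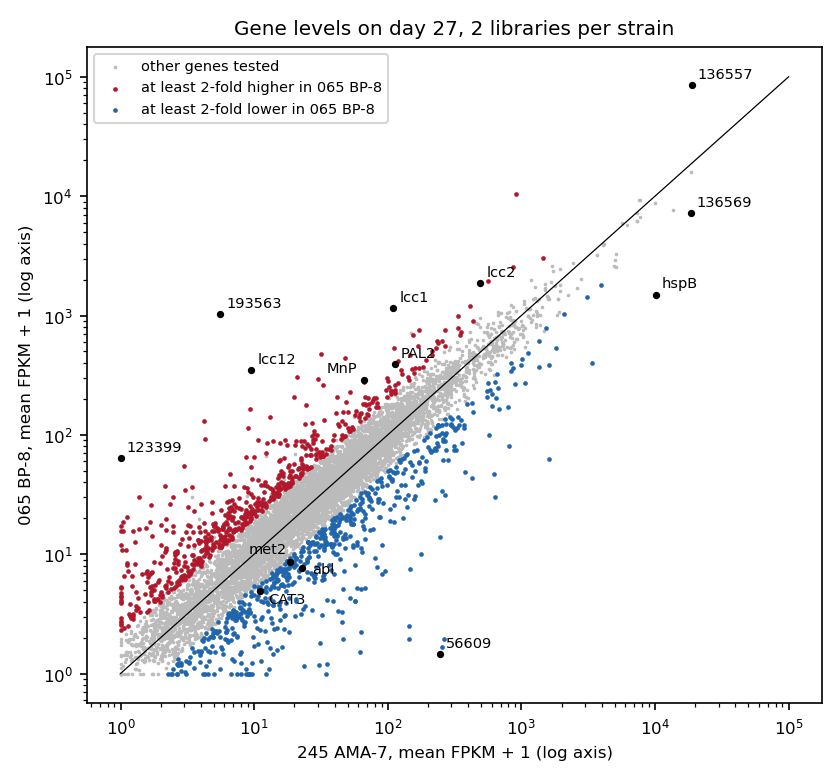
Mean FPKM + 1 of each gene tested on day 27 in 065 BP-8 (vertical, log axis) and in 245 AMA-7 (horizontal, log axis), 2 libraries per strain, with the line of equal levels. Red points are the 594 genes at least 2-fold higher in 065 BP-8, blue points the 618 at least 2-fold lower, grey points the other genes tested, and black points are labelled genes (numbers are the ends of their locus tags).

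Genes at higher levels were called more often, and genes at lower levels were more often called at least 2-fold apart. When the genes tested were split into 3 equal groups by mean level over the 4 libraries, in the lowest group (up to 13.3 FPKM) 40.0% were called and 18.1% were called at least 2-fold apart. In the middle group (13.3 to 46.7 FPKM) these shares were 50.6% and 12.1%. In the highest group they were 55.5% and 11.1%.

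The reference gene table gives a symbol to 88 of the genes, all of which were tested. Of these, 43 (48.9%) were called, close to the 48.7% of all genes, with 27 higher and 16 lower in 065 BP-8. At least 2-fold apart were the laccase genes lcc1, lcc2 and lcc12, the manganese peroxidase gene MnP, PAL2 and ATP20, all higher, and hspB, abl, met2 and CAT3, all lower. By symbol, 80 of the 88 genes fall into the groups described below, and 38 (47.5%) of those were called. This count was 24 without replicate 1 of 245 AMA-7 on day 27, 25 without replicate 2, and 19 in the 4 day 27 libraries alone.

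Genes for enzymes that oxidise phenolic compounds were among the genes with symbols that differed most. The laccase gene lcc1 had 1217 and 1073 FPKM in 065 BP-8, against 133 and 83.5 FPKM in 245 AMA-7. Both 065 BP-8 libraries were far above both 245 AMA-7 libraries, and the difference was 3.42 ± 0.35 (log2, SE, adjusted p = 5.38e-05), or 10.7-fold. For lcc2, the more abundant of the pair, the 065 BP-8 libraries held 1667 and 2091 FPKM and the 245 AMA-7 libraries 621 and 357 FPKM. The strains did not overlap, with a difference of 1.99 ± 0.31 (adjusted p = 0.000619), or 3.96-fold. How reads were divided between related laccase genes is not given in the sources used here, so the level of each member is less certain than that of a gene without relatives.

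The gene lcc12 stood at 658 and 33.6 FPKM in 065 BP-8, against 9.25 and 7.81 FPKM in 245 AMA-7. Both 065 BP-8 libraries were above both 245 AMA-7 libraries, but replicate 1 was by far the highest, and the size of the difference rests on it. The difference was 3.99 ± 0.97 (adjusted p = 0.00713), or 15.9-fold. It was 1.86, or 3.64-fold, without replicate 1 of 065 BP-8, and 6.12, or 69.4-fold, without replicate 2. From the 4 day 27 libraries alone the adjusted p was 0.0817.

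The other 3 laccase genes moved little on day 27. The gene lcc9 had 49.0 and 39.4 FPKM in 065 BP-8 and 35.4 and 29.8 FPKM in 245 AMA-7 (difference 0.42 ± 0.30, adjusted p = 0.268), and lcc10 had 8.24 and 5.15 FPKM in 065 BP-8 and 5.03 and 3.98 FPKM in 245 AMA-7 (0.46 ± 0.27, adjusted p = 0.183). The low-level lcc3 was lower, with 6.61 and 4.90 FPKM in 065 BP-8 against 8.97 and 8.57 FPKM in 245 AMA-7 (-0.54 ± 0.17, adjusted p = 0.0261), which lost its call without replicate 2 of 065 BP-8 or either library of 245 AMA-7. Over the 6 laccase genes the median difference was 1.22, with 3 higher, 1 lower and 2 not called; over all genes tested the median was 0.04, 26.4% were called higher and 22.4% lower.

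MnP, the one manganese peroxidase gene with a symbol, had 282 and 296 FPKM in 065 BP-8, against 79.7 and 51.4 FPKM in 245 AMA-7. The duplicates of 065 BP-8 were close together and well above those of 245 AMA-7, and the difference was 2.16 ± 0.30 (adjusted p = 0.00031), or 4.45-fold. PAL2, a phenylalanine ammonia-lyase gene of the pathway that makes cinnamic acid from phenylalanine, had 467 and 312 FPKM in 065 BP-8 and 107 and 116 FPKM in 245 AMA-7. Again the strains did not overlap, and the difference was 1.76 ± 0.22 (adjusted p = 0.000161), or 3.40-fold. Its relative PAL1 stood at 281 and 269 FPKM in 065 BP-8, against 230 and 223 FPKM in 245 AMA-7, a difference of 0.28 ± 0.11 that missed the threshold (adjusted p = 0.0517). C4H1, the remaining phenylpropanoid gene by symbol, was near 1 FPKM or below in all 4 libraries and was not called (adjusted p = 0.376).

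Beside these strains, 219 30P on day 27 had 1871 and 774 FPKM of lcc1, 3027 and 1676 FPKM of lcc2 and 528 and 390 FPKM of MnP. For lcc1 these values lie on both sides of those of 065 BP-8, and for MnP they lie above them. For lcc2, 3027 FPKM lies above both values of that strain, and 1676 FPKM lies between those values.

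**Figure D2:**
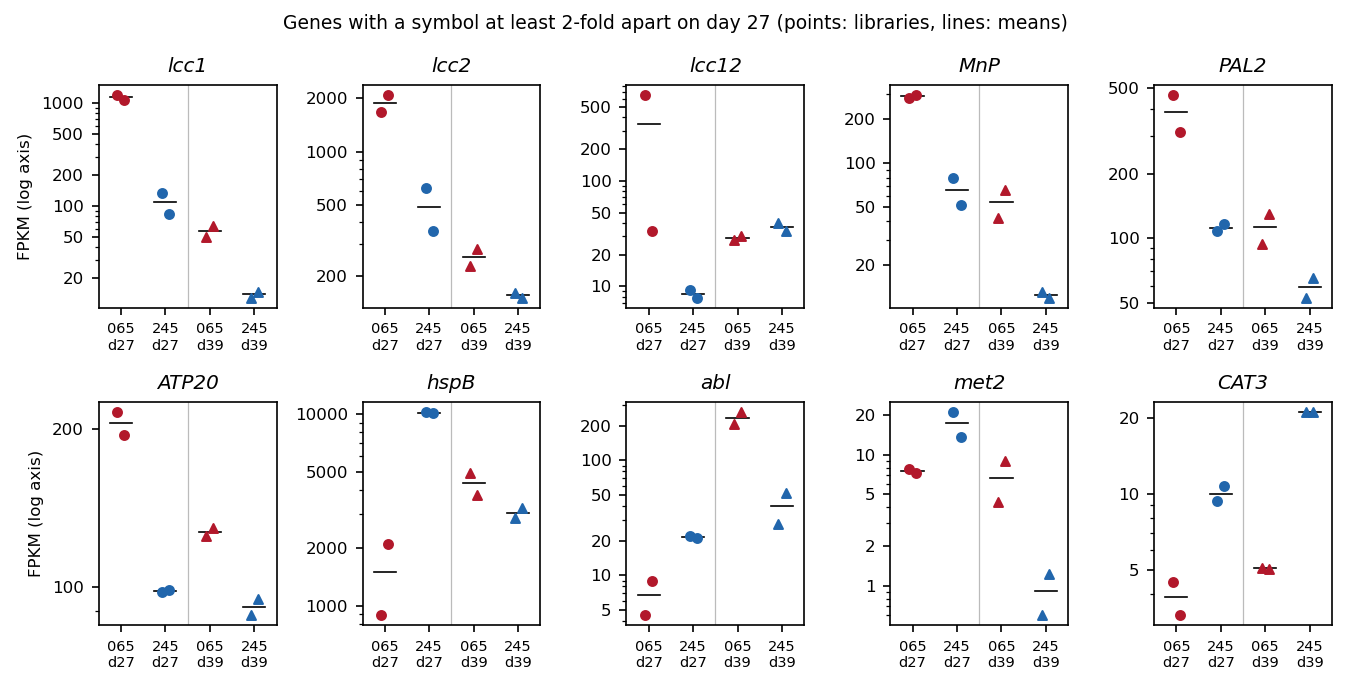
FPKM (log axes, which differ between panels) of the 10 genes with a symbol that were at least 2-fold apart on day 27, in each library of 065 BP-8 (red) and 245 AMA-7 (blue) on day 27 (circles) and day 39 (triangles), with group means as lines. The strains do not overlap on day 27 in any panel, and lcc12 has 1 library of 065 BP-8 far above the other. On day 39 the order is the opposite for abl and met2. It is also the opposite for hspB and lcc12, whose differences were not called on that day.

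Of 48 genes for ATP synthase or for complexes I to IV of the respiratory chain, 17 were called higher and 2 lower in 065 BP-8, and 29 did not pass the test. The difference was positive, called or not, in 38 of the 48 (79.2%), against 52.8% of all genes tested, and the median difference was 0.17, against 0.04 over all genes. The share called higher, 17 of 48, is set against the background of 26.4% of all genes, and the share called lower, 2 of 48, against 22.4%. The number of calls moved with single libraries: it was 10 higher and 4 lower without replicate 1 of 065 BP-8, 18 and 3 without replicate 2, 8 and 1 without replicate 1 of 245 AMA-7, and 9 and 2 without replicate 2. The median stayed positive in each of these fits, between 0.13 and 0.23. It was 0.16 after median-ratio scaling (14 higher, 3 lower) and 0.17 after quantile normalization (15 and 2).

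With complexes assigned by symbol alone, 9 of 21 genes of complex I (NADH dehydrogenase) were called. The calls were 2 of 6 in complex III and 2 of 5 in complex IV (cytochrome c oxidase). All of these were higher, and none of 5 in complex II (succinate dehydrogenase) was called. ATP synthase was mixed, with 4 of 11 genes higher and 2 lower. Over all genes tested, 48.7% were called, 26.4% higher and 22.4% lower. With so few genes in each complex, nothing is read from the counts of single complexes. ATP20, the symbol of a small membrane subunit of ATP synthase in yeast, differed most: it had 216 and 195 FPKM in 065 BP-8 and 97.9 and 98.6 FPKM in 245 AMA-7. Each duplicate pair was tight and the strains did not overlap (difference 1.05 ± 0.09, adjusted p = 1.62e-05). The complex IV gene COX5B had 203 and 157 FPKM in 065 BP-8 and 95.6 and 94.3 FPKM in 245 AMA-7 (0.90 ± 0.11, adjusted p = 0.000192). Its partner COX6B was called by a narrow margin (0.27 ± 0.10, adjusted p = 0.0423) and lost the call without replicate 2 of 065 BP-8 and without either library of 245 AMA-7.

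In complex I, NdufA4 had 178 and 155 FPKM in 065 BP-8 against 107 and 102 FPKM in 245 AMA-7 (0.66 ± 0.09, adjusted p = 0.000251). NdufA13 (0.65 ± 0.17, adjusted p = 0.00956) and NdufS4 (0.55 ± 0.14, adjusted p = 0.00895) were also called higher. Both calls depended on single libraries: NdufA13 missed the threshold without replicate 2 of 245 AMA-7, and NdufS4 without replicate 1 of either strain. In complex III, QCR9 had 74.7 and 62.1 FPKM in 065 BP-8 against 43.0 and 43.1 FPKM in 245 AMA-7 (0.65 ± 0.11, adjusted p = 0.000819), and the core subunit gene QCR1 was higher by 0.39 ± 0.08 (adjusted p = 0.00236). INH1, the symbol of an inhibitor protein of mitochondrial ATPase, was higher by 0.61 ± 0.11 (adjusted p = 0.00145). Against this direction, ATP16 had 180 and 168 FPKM in 065 BP-8 and 234 and 239 FPKM in 245 AMA-7 (-0.44 ± 0.11, adjusted p = 0.00865), and ATP7 was lower by a difference of -0.33 ± 0.10 (adjusted p = 0.018). The cytochrome c gene CytC2, at 1809.8 and 1557 FPKM in 065 BP-8 and 1492 and 1512 FPKM in 245 AMA-7, was not called (0.16 ± 0.10, adjusted p = 0.223).

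The alternative oxidase gene AOX had 252 and 51.5 FPKM in 065 BP-8, against 56.7 and 62.8 FPKM in 245 AMA-7. One 065 BP-8 library lay above and one below both 245 AMA-7 libraries, and the gene was not called (0.93 ± 0.54, adjusted p = 0.179). Without replicate 1 of 065 BP-8 the difference came to -0.21 (adjusted p = 0.437), whereas leaving out replicate 2 gave 2.06 (adjusted p = 4.79e-05). The genes of external NADH dehydrogenases, which feed electrons into the chain without complex I, went apart: NDE1 had 71.0 and 70.9 FPKM in 065 BP-8 and 87.1 and 90.8 FPKM in 245 AMA-7 (-0.32 ± 0.08, adjusted p = 0.0105), and NDE2 had 96.5 and 89.4 FPKM in 065 BP-8 and 71.8 and 75.5 FPKM in 245 AMA-7 (0.33 ± 0.12, adjusted p = 0.0475). The NDE2 call was lost on leaving out any of the 4 libraries, and the NDE1 call without replicate 2 of 245 AMA-7.

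**Figure D3:**
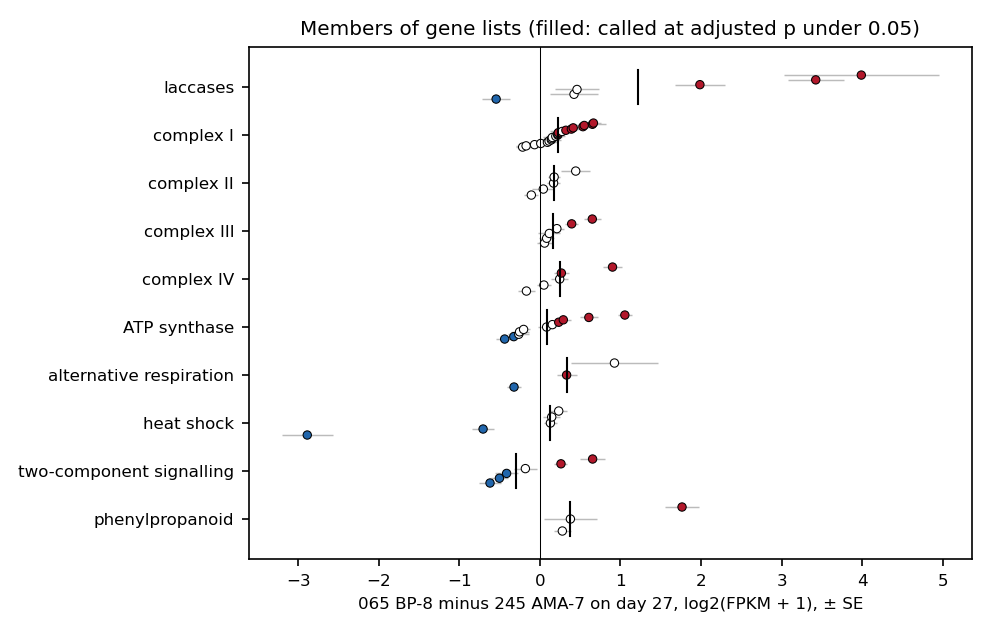
Difference on day 27 (065 BP-8 minus 245 AMA-7, log2(FPKM + 1), with the SE from limma as grey bars) of every gene in 10 groups made by symbol. Filled points passed the test (red higher, blue lower in 065 BP-8), open points did not, and black ticks are group medians: 1.22 for the laccases, between 0.08 and 0.25 for the respiratory complexes and ATP synthase, and -0.30 for two-component signalling.

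The gene hspB, named as a heat shock protein gene, was among the most abundant transcripts of 245 AMA-7 and lower in 065 BP-8. It had 896 and 2092 FPKM in 065 BP-8, against 10221 and 10073 FPKM in 245 AMA-7. Both 065 BP-8 libraries were far below the 245 AMA-7 duplicates, which were nearly equal; the difference was -2.89 ± 0.32 (adjusted p = 8.54e-05), or 7.41-fold lower, and 4.85-fold or 11.3-fold lower without replicate 1 or replicate 2 of 065 BP-8. Strain 219 30P had 1483 and 1787 FPKM, within the range of 065 BP-8. A smaller fall was called for hspE, with 298 and 409 FPKM in 065 BP-8 and 542 and 599 FPKM in 245 AMA-7 (-0.71 ± 0.14, adjusted p = 0.00216). The other heat shock genes, hspA, hspC and hspD, stood at 896 to 1502 FPKM in 065 BP-8 and 801 to 1348 FPKM in 245 AMA-7, and were not called (differences 0.13 to 0.23); under quantile normalization 2 of the 5 heat shock genes were called higher.

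The lectin gene abl, whose protein is abundant in fruit bodies of this species, was low in all 4 libraries and lower in 065 BP-8. It had 4.53 and 8.92 FPKM in 065 BP-8, against 22.1 and 21.3 FPKM in 245 AMA-7. The strains did not overlap, and the difference was -1.62 ± 0.32 (adjusted p = 0.00235), or 3.06-fold lower. The gene was 2.29-fold lower without replicate 1 of 065 BP-8 and 4.1-fold lower without replicate 2. It is the only fruit body gene among the symbols, so whether tissue of primordia differed between the samples was not tested. The catalase gene CAT3, of an enzyme that breaks down hydrogen peroxide, had 4.49 and 3.31 FPKM in 065 BP-8 and 9.37 and 10.7 FPKM in 245 AMA-7 (-1.18 ± 0.15, adjusted p = 0.00021), while CAT1, at 2.27 to 3.21 FPKM in the 4 libraries, was not called (adjusted p = 0.142). For met2, named after a yeast gene of methionine synthesis, the values were 7.82 and 7.26 FPKM in 065 BP-8 and 21.3 and 13.8 FPKM in 245 AMA-7 (-1.09 ± 0.30, adjusted p = 0.0137). Its call was lost without replicate 1 of 245 AMA-7 (-0.79, adjusted p = 0.11).

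Genes of two-component signalling, in which histidine kinases pass phosphate to response regulators, went both ways, with 2 of 6 higher, 3 lower and a median of -0.30, where 48.7% of all genes were called, 26.4% higher and 22.4% lower. The kinase gene Tco5 had 20.2 and 13.6 FPKM in 065 BP-8 and 10.1 and 10.2 FPKM in 245 AMA-7 (0.65 ± 0.16, adjusted p = 0.00661). The Tco5 difference was 0.39 without replicate 1 of 065 BP-8 and 0.92 without replicate 2. Its call was lost in the 4 day 27 libraries alone (adjusted p = 0.0822). Tco1 was higher by 0.26 ± 0.08 (adjusted p = 0.0225). In contrast, the kinase gene STK/HK had 7.49 and 8.34 FPKM in 065 BP-8 and 13.1 and 12.3 FPKM in 245 AMA-7 (-0.62 ± 0.14, adjusted p = 0.0048). Tco6 (-0.50 ± 0.10, adjusted p = 0.00315) and the response regulator gene SSK1 (-0.41 ± 0.15, adjusted p = 0.0398) were lower as well, and SKN7 was not called (adjusted p = 0.32). PhrB, the symbol of a photolyase that repairs DNA in light, had 4.63 and 5.49 FPKM in 065 BP-8 and 7.0 and 8.65 FPKM in 245 AMA-7 (-0.54 ± 0.14, adjusted p = 0.0105), and its call was lost without replicate 1 of 065 BP-8 or replicate 2 of 245 AMA-7. Fet3, a ferroxidase of iron uptake in yeast, had 7.51 and 9.36 FPKM in 065 BP-8 and 8.09 and 9.09 FPKM in 245 AMA-7 and was not called (-0.03 ± 0.11, adjusted p = 0.853). On day 39 it stood at 184 and 198 FPKM in 065 BP-8 and 184 and 173 FPKM in 245 AMA-7.

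Most of the largest differences were in genes that the reference table gives no symbol. The most abundant transcript of 065 BP-8, from the gene AGABI2DRAFT_136557, had 76657 and 93004 FPKM in 065 BP-8, against 17519 and 20106 FPKM in 245 AMA-7. It held 9.20% and 10.5% of all FPKM in the 065 BP-8 libraries and 2.09% and 2.41% in the 245 AMA-7 libraries, and differed by 2.17 ± 0.27 (adjusted p = 0.000176), or 4.50-fold. Strain 219 30P lay between the strains, at 44343 and 49900.3 FPKM. The call on this gene was lost in the 4 day 27 libraries alone and under quantile normalization. Since FPKM are shares of a library, a transcript of this size bears on the level of all others: rescaling every library to the same sum without it, a choice made after seeing the data, moved the median difference of all genes to 0.11 and gave 2652 genes higher and 1651 lower.

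The gene AGABI2DRAFT_136569 took the opposite direction, with 6514 and 7910.2 FPKM in 065 BP-8 and 17596 and 19330 FPKM in 245 AMA-7. The strains did not overlap (-1.36 ± 0.19, adjusted p = 0.000327). Of the other 4 genes with the highest mean level over the 4 libraries, AGABI2DRAFT_71560 was lower, with 6197 and 9009 FPKM in 065 BP-8 and 13057 and 14207 FPKM in 245 AMA-7 (-0.87 ± 0.22, adjusted p = 0.00977). This call was lost without replicate 2 of 245 AMA-7. AGABI2DRAFT_193057, AGABI2DRAFT_75975 and AGABI2DRAFT_75872 were not called (adjusted p = 0.439, 0.513 and 0.547). AGABI2DRAFT_194030, picked out here after its values were seen, had 13232 and 7732 FPKM in 065 BP-8 and 876 and 952 FPKM in 245 AMA-7. That difference was 3.47 ± 0.24 (adjusted p = 6.77e-06), and 219 30P stood between the strains at 3459 and 4216 FPKM.

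Among genes that averaged 10 FPKM or more in the higher strain, AGABI2DRAFT_193563 was furthest above 245 AMA-7. It had 1836 and 218 FPKM in 065 BP-8, against 6.19 and 2.94 FPKM in 245 AMA-7. Both 065 BP-8 libraries were far above both of 245 AMA-7 yet far apart from each other, and the difference of 6.90 ± 0.76 (adjusted p = 8.6e-05) came to 41.1-fold without replicate 1 of 065 BP-8 and 345-fold without replicate 2. With tighter duplicates, AGABI2DRAFT_183756 had 157 and 104 FPKM in 065 BP-8 and 3.32 and 3.05 FPKM in 245 AMA-7 (4.95 ± 0.26, adjusted p = 1.05e-06). AGABI2DRAFT_139839 had 109 and 75 FPKM in 065 BP-8 and 2.74 and 3.81 FPKM in 245 AMA-7 (4.43 ± 0.21, adjusted p = 6.79e-07). AGABI2DRAFT_192147 had close duplicates, at 53.2 and 54.1 FPKM in 065 BP-8, against 1.63 and 2.30 FPKM in 245 AMA-7 (4.21 ± 0.15, adjusted p = 1.28e-07). AGABI2DRAFT_54359, among the 4 smallest p-values of genes that were higher, had 89.7 and 90.7 FPKM in 065 BP-8 and 10.6 and 8.90 FPKM in 245 AMA-7 (3.09 ± 0.12, adjusted p = 1.39e-07).

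In the other direction, AGABI2DRAFT_221381 had 0.84 and 0.48 FPKM in 065 BP-8, against 248 and 257 FPKM in 245 AMA-7. It had the smallest adjusted p of all genes (-7.26 ± 0.13, adjusted p = 8.75e-10). AGABI2DRAFT_56609 was much alike, with 0 and 0.90 FPKM in 065 BP-8 and 232 and 259 FPKM in 245 AMA-7 (-7.48 ± 0.23, adjusted p = 5.96e-08). In 219 30P these genes stood at 94.2 to 113 FPKM, so the low level was seen in 065 BP-8 and not in 219 30P. AGABI2DRAFT_194809, with 0.86 and 1.00 FPKM in 065 BP-8 and 297 and 228 FPKM in 245 AMA-7 (-7.08 ± 0.21, adjusted p = 5.96e-08), and AGABI2DRAFT_200279, with 0.97 and 0.94 FPKM in 065 BP-8 and 153 and 133 FPKM in 245 AMA-7 (-6.20 ± 0.43, adjusted p = 6.33e-06), were at most 2.13 FPKM in 219 30P as well. AGABI2DRAFT_115967 had 0.38 and 2.04 FPKM in 065 BP-8 and 61.9 and 62.9 FPKM in 245 AMA-7 (-4.95 ± 0.33, adjusted p = 4.37e-06), and AGABI2DRAFT_191018 had 0.21 and 0.80 FPKM in 065 BP-8 and 94.8 and 26.3 FPKM in 245 AMA-7 (-5.12 ± 0.87, adjusted p = 0.00107). The fold difference of AGABI2DRAFT_191018 was 18.5 without replicate 1 of 245 AMA-7 and 64.9 without replicate 2. AGABI2DRAFT_79330 had 11.3 and 10.5 FPKM in 065 BP-8 and 95.4 and 84.6 FPKM in 245 AMA-7 (-2.94 ± 0.10, adjusted p = 6.33e-08).

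A small number of the 10438 genes were listed at 0 in both libraries of one strain and averaged 1 FPKM or more in the other. There were 27 genes whose mean was 1 FPKM or more in 065 BP-8 and 0 in both 245 AMA-7 libraries, and 26 the other way. Most were low: 4 of the 27 and 2 of the 26 averaged 10 FPKM or more. The filter on low values let 17 of the 27 and 21 of the 26 be tested. AGABI2DRAFT_119136 (3.23 and 0 FPKM) and AGABI2DRAFT_194651 (3.08 and 0 FPKM) were at 0 in 1 library of 065 BP-8 as well. On day 39, 18 of the 27 were again at 0 in both 245 AMA-7 libraries, and 16 of the 26 were again at 0 in both 065 BP-8 libraries. AGABI2DRAFT_123399 had 53.5 and 72.6 FPKM in 065 BP-8 and was listed at 0 in both 245 AMA-7 libraries and in both 219 30P libraries of day 27 (adjusted p = 1.15e-07). AGABI2DRAFT_40469, with 17.2 and 15.3 FPKM in 065 BP-8 on day 27, was listed at 0 in both 245 AMA-7 libraries on both days (adjusted p = 2.72e-07). AGABI2DRAFT_117638 was at 18.1 and 17.0 FPKM in 065 BP-8 and at 0 and 0.07 FPKM in 245 AMA-7 (adjusted p = 5.96e-08), and it was present in 219 30P at 23.2 and 24.2 FPKM. AGABI2DRAFT_144407, with 16 and 13.5 FPKM in 065 BP-8 and 0 and 0.07 FPKM in 245 AMA-7 (adjusted p = 3.55e-07), was listed at 0 in both 219 30P libraries.

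The reverse pattern was carried by AGABI2DRAFT_190240, listed at 0 in both 065 BP-8 libraries and at 30.9 and 35.7 FPKM in 245 AMA-7 (adjusted p = 6.33e-08), and by AGABI2DRAFT_121415, listed at 0 in both 065 BP-8 libraries and at 15.9 and 6.72 FPKM in 245 AMA-7 (adjusted p = 1.88e-05). Both were listed at 0 in 065 BP-8 on day 39 too, and both were present in 219 30P on day 27. AGABI2DRAFT_142862 had 18.9 and 19.8 FPKM in 065 BP-8 and 0.22 and 0 FPKM in 245 AMA-7 (adjusted p = 4.33e-07). Whether the strains hold these genes in the same form was not tested.

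Genes that differed at least 2-fold often lay next to others that differed in the same direction. In the gene order of the reference assembly, which is of another strain, 156 of 589 genes at least 2-fold higher (26.5%) had a direct neighbour that was also at least 2-fold higher, against 830 of 8151 other tested genes (10.2%). For genes at least 2-fold lower the counts were 182 of 612 (29.7%), against 821 of 8128 (10.1%). These are descriptions, with no test, since neighbouring genes are not independent. There were 28 runs of at least 3 neighbours, of which 7 were higher and 21 lower in 065 BP-8; 21 runs held 3 genes, 6 held 4 and 1 held 5.

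The run with the largest differences joined AGABI2DRAFT_56609, described above, to AGABI2DRAFT_56520, AGABI2DRAFT_67577 and AGABI2DRAFT_56255. AGABI2DRAFT_56520 had 2.63 and 0.42 FPKM in 065 BP-8 and 138 and 146 FPKM in 245 AMA-7 (-5.98 ± 0.34, adjusted p = 1.64e-06), which was 101-fold lower without replicate 1 of 065 BP-8 and 39.4-fold lower without replicate 2. AGABI2DRAFT_67577 had 8.74 and 3.85 FPKM in 065 BP-8 and 91.6 and 96.9 FPKM in 245 AMA-7 (-3.79 ± 0.41). All 4 genes were low in 065 BP-8, whereas in 219 30P the first 2 stood at 58.0 FPKM or more and the last 2 at 1.80 FPKM or less.

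A run of 4 genes went the other way: AGABI2DRAFT_191400, AGABI2DRAFT_134872, AGABI2DRAFT_191403 and AGABI2DRAFT_191401 were higher in 065 BP-8 by 3.41, 1.89, 1.55 and 2.88. The first had 32.1 and 39.2 FPKM in 065 BP-8, against 2.48 and 2.40 FPKM in 245 AMA-7. In a further run, AGABI2DRAFT_195005, AGABI2DRAFT_138613, AGABI2DRAFT_195007 and AGABI2DRAFT_145641 were lower by differences of -4.11, -3.31, -4.38 and -3.73. The third of these had 3.81 and 9.22 FPKM in 065 BP-8 and 136 and 154 FPKM in 245 AMA-7, and 219 30P stood at 12.4 FPKM or less in all 4. The run of AGABI2DRAFT_44732, AGABI2DRAFT_205695, AGABI2DRAFT_136705 and AGABI2DRAFT_193177 was lower by differences between -2.66 and -3.42, each with an adjusted p of at most 2.19e-05. Not every run is as firm: in the run from AGABI2DRAFT_178627 to AGABI2DRAFT_192979, the call of AGABI2DRAFT_143366 (adjusted p = 0.0294) was lost on leaving out any of the 4 libraries.

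**Figure D4:**
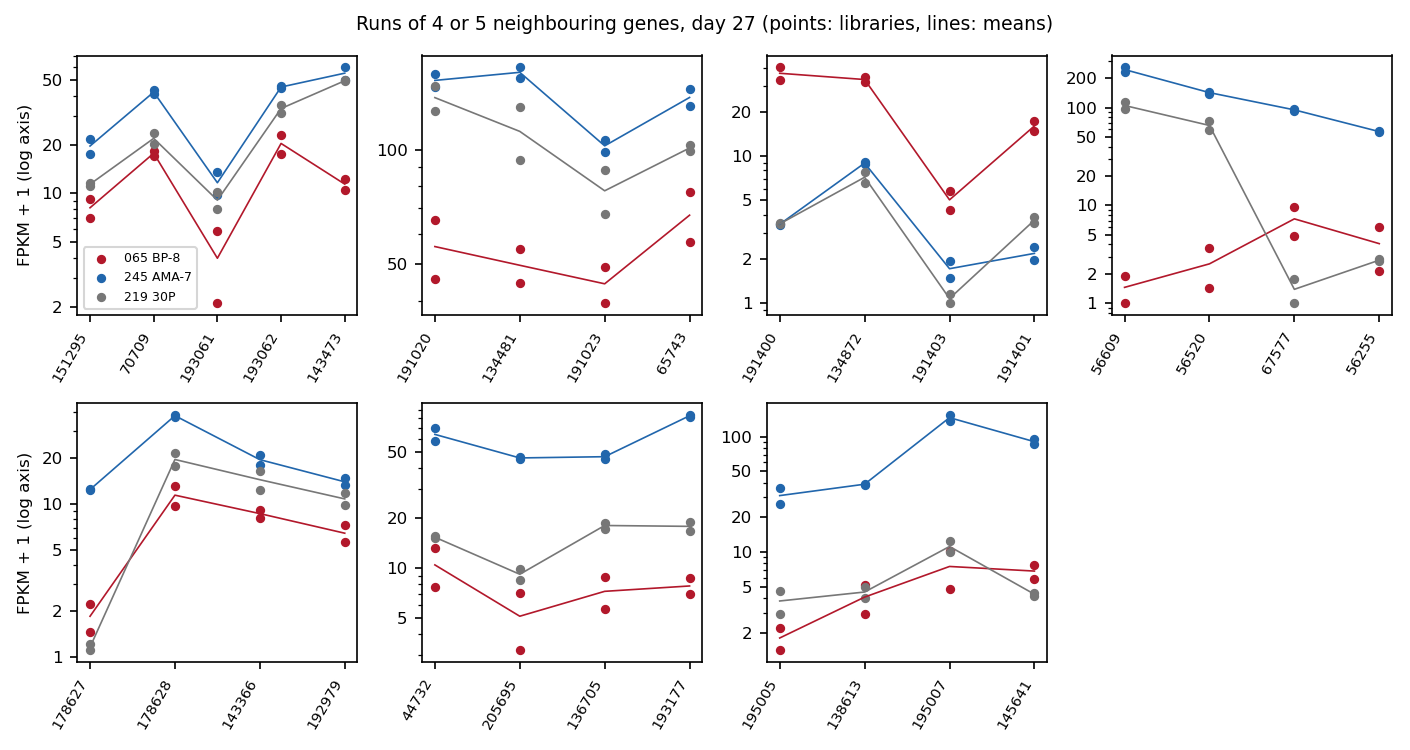
FPKM + 1 (log axes, which differ between panels) on day 27 of the genes in the 7 runs of 4 or 5 neighbours that were all at least 2-fold higher or all at least 2-fold lower in 065 BP-8, in reference gene order, for 065 BP-8 (red), 245 AMA-7 (blue) and 219 30P (grey). Points are libraries and lines join means; the one panel with 065 BP-8 on top is the run that begins with AGABI2DRAFT_191400.

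Some differences were set by 1 library of 065 BP-8. Of the 8798 genes tested, 347 (3.94%) were more than 2-fold apart between the 065 BP-8 duplicates, and they made up 146 (12%) of the 1212 genes called at least 2-fold apart between strains. In 47 genes the 065 BP-8 duplicates were more than 4-fold apart, with 40 higher in replicate 1, against 6 genes in 245 AMA-7. AGABI2DRAFT_135047 had 784 and 89.7 FPKM in 065 BP-8, against 46.2 and 48.0 FPKM in 245 AMA-7. The difference of 2.47 (adjusted p = 0.0174) was 0.92 without replicate 1 of 065 BP-8, and the call was lost without either 245 AMA-7 library. The neighbours AGABI2DRAFT_134420 (244 and 34.9 FPKM in 065 BP-8, 12.5 and 11.9 FPKM in 245 AMA-7) and AGABI2DRAFT_190967 (153 and 23.1 FPKM in 065 BP-8, 12.5 and 13.2 FPKM in 245 AMA-7) showed the same gap. Their differences were 2.83 and 2.135, and fell to 1.44 and 0.80 without replicate 1 of 065 BP-8. Neither was called by limma in the 4 day 27 libraries alone (adjusted p = 0.0682 and 0.118). AGABI2DRAFT_135729, in which replicate 2 was the higher, had 10.1 and 48.4 FPKM in 065 BP-8 and 649 and 609 FPKM in 245 AMA-7, so that both libraries were far below 245 AMA-7. What sets replicate 1 apart was not tested.

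The strain difference was partly kept at the first flush. On day 39, from other libraries of the same strains, 3409 genes (38.7%) were called between the strains, 1453 (16.5%) higher and 1956 (22.2%) lower in 065 BP-8. Both days were tested in the fit of 12 libraries and so share its estimate of spread and its filter. Which day had more calls depended on how libraries were weighted. With array weights, which gave both 065 BP-8 libraries of day 27 a weight of 0.411, 3238 genes were called on day 27 and 4293 on day 39. The balance of directions on day 39 depended on scaling: 42.6% of the 3409 calls were higher in 065 BP-8, against 54.0% after median-ratio scaling. The count was 2258 and 2219 without replicate 1 or 2 of 065 BP-8 on day 39, 1926 without replicate 1 of 245 AMA-7 on day 39 and 2287 without replicate 2. Of the genes called on day 27, 1441 were called in the same direction on day 39, which is 33.6% of the day 27 calls and 42.3% of the day 39 calls, and 499 were called in the opposite direction. Without replicate 1 of 245 AMA-7 on day 39, 936 were shared. Across the 8798 genes the differences of the 2 days had a Pearson correlation of 0.432 and a Spearman correlation of 0.294. The difference itself changed between days in 2945 genes (33.5%) by the interaction of strain and day, or 1940 without replicate 1 of 245 AMA-7 on day 39. It was more positive on day 27 in 59.8% of these genes, in 48.4% after median-ratio scaling and in 70.7% after the rescaling without the most abundant transcript, which moved the median change over all genes from 0.10 to 0.22.

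Of the 594 genes at least 2-fold higher on day 27, 257 (43.3%) were called higher on day 39 and 45 lower; their median difference was 1.36 on day 27 and 0.45 on day 39. Of the 618 genes at least 2-fold lower on day 27, 302 (48.9%) were called lower on day 39 and 62 higher, with medians of -1.45 on day 27 and -0.54 on day 39. These genes were chosen for their size on day 27, so their medians on the 2 days are not on equal terms. The share with a changed difference was 56.1% in each set, against 33.5% of all genes, but the day 27 difference that chose the sets is also part of that change, so nothing is read from it.

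The gene pair lcc1 and MnP stayed at least 2-fold higher on day 39 at much lower levels. On that day lcc1 had 49.9 and 63.5 FPKM in 065 BP-8, against 12.9 and 14.7 FPKM in 245 AMA-7 (1.96 ± 0.35, adjusted p = 0.00214), and MnP had 42.5 and 66.0 FPKM in 065 BP-8, against 13.1 and 12 FPKM in 245 AMA-7 (2.00 ± 0.30, adjusted p = 0.000792). For lcc2, 228 and 283 FPKM in 065 BP-8 stood against 161 and 151 FPKM in 245 AMA-7, which was not called (0.70 ± 0.31, adjusted p = 0.0985). On day 39, 3 of the 6 laccase genes were called lower in 065 BP-8, lcc3 by -1.77, lcc9 by -1.51 and lcc10 by -1.44, and the difference changed between days in all 6, against 33.5% of all genes. Of these calls, lcc1 (adjusted p = 0.0447) and lcc2 (adjusted p = 0.046) were close to the threshold, and that of lcc12 rests on duplicates of 065 BP-8 that were far apart on day 27. PAL2 stayed higher (0.91 ± 0.22, adjusted p = 0.00895).

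The genes abl and met2 changed direction. On day 39 abl had 207 and 264 FPKM in 065 BP-8, against 27.9 and 51.6 FPKM in 245 AMA-7 (2.59 ± 0.32, adjusted p = 0.000265), and met2 had 4.36 and 8.96 FPKM in 065 BP-8, against 0.60 and 1.23 FPKM in 245 AMA-7 (1.95 ± 0.30, adjusted p = 0.000948). The high level of hspB in 245 AMA-7 was gone: on day 39 it had 4922 and 3776 FPKM in 065 BP-8 and 2850.2 and 3241 FPKM in 245 AMA-7 (0.50 ± 0.32, adjusted p = 0.236). CAT3 stayed lower in 065 BP-8, at 5.08 and 5.05 FPKM against 21.2 and 21.2 FPKM in 245 AMA-7 (-1.87 ± 0.15, adjusted p = 2.36e-05). In the respiratory chain the balance of calls on day 39 was 3 higher and 12 lower of 48 genes, against a background of 16.5% higher and 22.2% lower over all genes, with a median of -0.01. After median-ratio scaling it was 5 higher and 7 lower, with a median of 0.07.

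Among genes without a symbol, AGABI2DRAFT_221381 (-7.62 on day 39) and AGABI2DRAFT_56609 (-8.04) were as low in 065 BP-8 on day 39 as on day 27. AGABI2DRAFT_79330 was not: it had 15.7 and 14.8 FPKM in 065 BP-8 and 15 and 15.5 FPKM in 245 AMA-7 on day 39. AGABI2DRAFT_194030 was equal between the strains on that day, with 3728 and 4170.1 FPKM in 065 BP-8 and 3924 and 3960.2 FPKM in 245 AMA-7. AGABI2DRAFT_193563, so much higher on day 27, had 22.8 and 30.3 FPKM in 065 BP-8 and 43.3 and 66.9 FPKM in 245 AMA-7 (adjusted p = 0.321), and the most abundant transcript, AGABI2DRAFT_136557, was no longer called (0.52 ± 0.27, adjusted p = 0.156).

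**Figure D5:**
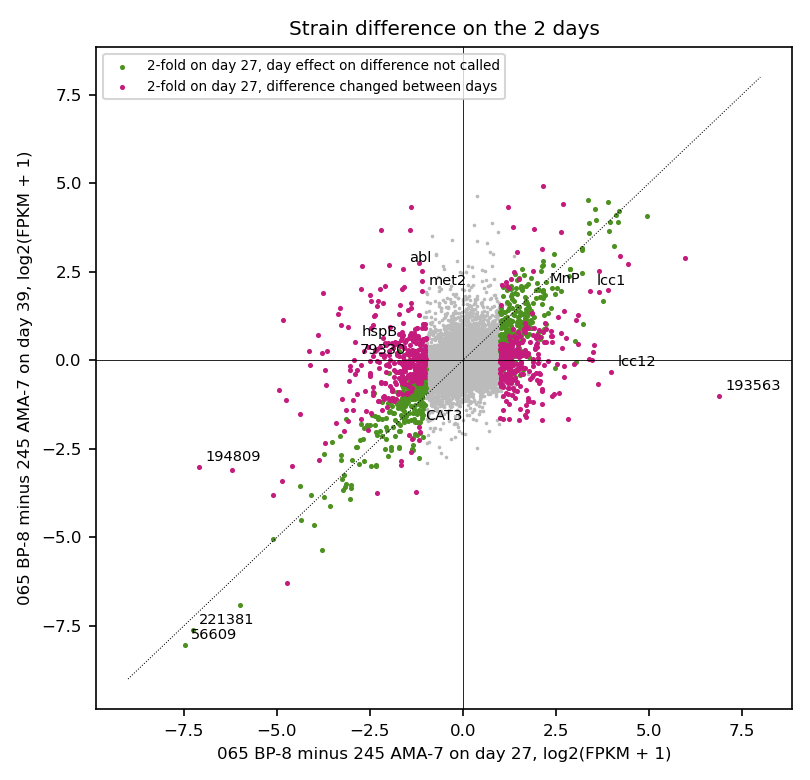
Strain difference (065 BP-8 minus 245 AMA-7, log2(FPKM + 1)) of each gene tested on day 27 (horizontal) and day 39 (vertical), with the line of equal differences dotted. Green and magenta points are the genes at least 2-fold apart on day 27, magenta where the difference changed between days and green where that was not called; genes such as AGABI2DRAFT_56609 lie on the line, AGABI2DRAFT_79330 lies on the zero of day 39, and abl and met2 lie in the upper left.

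Set beside 219 30P, the day 27 levels of that strain were more often nearer to 065 BP-8 than to 245 AMA-7. This held for 60.6% of all genes tested, for 398 of the 594 genes at least 2-fold higher in 065 BP-8 (67.0%) and for 405 of the 618 at least 2-fold lower (65.5%). In 376 of the 594 and 406 of the 618, 219 30P lay between the strains, against 3390 of all 8798 genes tested. Genes chosen for a wide gap leave more room between the strains, so nothing is read from this. These positions use the same day 27 libraries as the calls and are a description only.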

How the data were processed

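RNA was sequenced from compost colonised by A. bisporus, with total RNA isolated on caesium chloride gradients, per the labels' protocols. Bowtie, BWA and RSEM are named by the submitters' processing notes, with versions, roles and genome build not given in the sources used here. Per library, the authors deposited 1 table, whose values were taken to be FPKM. This unit was inferred: the values have 2 decimals and sum to totals that differ (832823 to 887189 in the 4 day 27 libraries compared). Without read counts there are no counting intervals, and a value of 0 is called listed at 0.

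Samples were grouped by strain and day from their titles. Differences were taken on log2(FPKM + 1) and tested by limma-trend (limma 3.58.1, R 4.3.3; a mean for each of 6 groups, 12 libraries, 6 residual degrees of freedom, median residual SD 0.144) for genes whose mean over these libraries reached 1 FPKM. The Benjamini-Hochberg adjustment ran over all 8798 genes, the threshold was 0.05, and the fit was tested on simulated data. A fold change is on the log2(FPKM + 1) scale and understates the change of low genes. A15 has a shorter gene list (9520 genes) and entered only as an alternative. Tables were read and drawn with Python 3.11.15, pandas 2.3.3, numpy 2.4.6 and matplotlib 3.10.9.

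Locus tags of the assembly Agabi_varbisH97_2 matched 10373 of 10438 identifiers and gave symbols and gene order only; no sequences or coordinates are given. Groups of genes were made by symbol; groups planned by protein pattern were not made, because no protein table was at hand. The genes named were the 8 largest differences each way among called genes without overlap at 10 FPKM or more, every symbol called at least 2-fold apart, the 4 highest each way present in one strain and at most 0.1 FPKM in the other, the 6 most abundant genes, up to 3 members of each group and the 4 smallest p-values each way. Other genes named by locus tag, those of runs and of duplicate gaps included, were chosen after their values were seen, as were some members of the symbol groups given for completeness. The comparison, the groups and the rules were chosen with earlier results of these data known.

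Replicate numbers were not treated as pairs. Alternatives tried were other scalings, pseudocounts of 0.1 and 5, other filters, array weights, other sets of libraries, a replicate block and leaving out each library.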

Additional observations from a re-analysis of the deposited data

Results flagged for a closer look

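The strain difference on day 27 minus that on day 39 was taken on log2(FPKM + 1), with 065 BP-8 minus 245 AMA-7 each day. This change was called by the interaction of strain and day (limma, Benjamini-Hochberg adjustment) in 2945 genes, 33.5% of all genes tested. Among them were 32 of the 65 genes named by the rule. Many named genes were chosen for their day 27 difference, which is also part of this change. Nothing is therefore read from the share called among the named genes.

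In genes higher in 065 BP-8 on day 27, the difference was more positive on day 27 by 7.90 for AGABI2DRAFT_193563, 4.32 for lcc12, 3.08 for AGABI2DRAFT_123399 (listed at 0 in 245 AMA-7, so that the size depends on the pseudocount), 1.80 for AGABI2DRAFT_54359, 1.70 for AGABI2DRAFT_139839, 1.65 for AGABI2DRAFT_136557, 1.49 for Tco5, 1.47 for lcc1, 1.28 for lcc2 and 1.25 for AGABI2DRAFT_192147. The values of AGABI2DRAFT_193563 and lcc12 rest on duplicates of 065 BP-8 that stood far apart. The calls of lcc1 (adjusted p = 0.0447) and lcc2 (adjusted p = 0.046) lay close to the threshold.

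Among genes of respiration and PAL1, it was more positive on day 27 by 0.72 for PAL1, 0.71 for NdufA13, 0.70 for QCR1, 0.63 for SDH1, 0.62 for QCR9, 0.59 for ATP20, 0.56 for NdufA4 and 0.35 for SDH3 (AGABI2DRAFT_217734), and it was -0.83 for CytC2, whose difference was the larger on day 39.

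In genes lower in 065 BP-8 on day 27 the value was -4.20 for abl, -4.10 for AGABI2DRAFT_115967, -4.07 for AGABI2DRAFT_194809, -3.39 for hspB, -3.11 for AGABI2DRAFT_200279, -3.04 for met2, -2.93 for AGABI2DRAFT_79330, -1.39 for hspE and -1.30 for AGABI2DRAFT_190240 (listed at 0 in 065 BP-8). Among the most abundant transcripts it was -1.90 for AGABI2DRAFT_71560 and -1.88 for AGABI2DRAFT_193057. CAT3 (0.69) and AGABI2DRAFT_136569 (0.87) had positive values; both were lower still in 065 BP-8 on day 39.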

How the results depend on the processing

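Counts within 1.5 times the reported ones were found under most alternatives. Beside some of the fits that leave out 1 library, given next, the exceptions were the 4 day 27 libraries alone, with 2 residual degrees of freedom (2643 genes called, 1405 higher, 1238 lower, and 19 members of the symbol groups, against 38), and a pseudocount of 5, which shrinks low genes (321 genes at least 2-fold higher and 390.0 lower). Leaving out 1 library, with the lone sample of that group taken to vary like the other groups, gave 3194 to 4464 genes called on day 27 (1760 to 2413 higher, 1433 to 2051 lower), 497 to 761 at least 2-fold higher and 542 to 755 at least 2-fold lower, 1926 to 3951 called on day 39, 936 to 1505 called the same way on both days, 1940 to 3732 with a changed difference, 24 to 40 group members and 43 to 47 of the 49 named genes called.

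With the replicate block, 4091 genes were called on day 27, of which 3984 were called without it; on day 39 it gave 3166, with 1339 shared between days and 2744 changed differences, 34 group members and 48 named genes. No label says that equal numbers pair samples, and the deviations of equally numbered replicates from their group means did not go together (r = -0.02 between 065 BP-8 and 245 AMA-7 on day 27, across genes).

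Of 971 values of single named genes under the alternatives, 910 kept direction and side of the threshold, 35 lost the call, 19 gained it and 7 changed sign, all in genes not called. The 4 day 27 libraries alone called 39 of the 49 named genes. Lost there were lcc12, Tco5, NdufA13, NdufS4, COX6B, NDE1, NDE2, PhrB, AGABI2DRAFT_136557 and AGABI2DRAFT_71560. AOX ranged from -0.21 to 2.06 on leaving out 1 library, AGABI2DRAFT_75872 from -0.19 to 0.60, AGABI2DRAFT_75975 from -0.46 to 0.073 and Fet3 from -0.17 to 0.11. AGABI2DRAFT_75975 was at 0.14 under quantile normalization, and Fet3 at 0.041 after rescaling without the most abundant transcript, an alternative chosen after seeing the data. The causes were not tested. Depth limits genes near 1 FPKM; with 2 libraries a group, the spread of single genes is known mainly through the fit across genes.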
